A study of Mus musculus with 9 samples.

Results

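Clic6, Capn6 and Car14 were followed through a mouse culture model in which pluripotent stem cells were turned into definitive endoderm and then into anterior foregut cells. Every probe annotated to these genes was taken, which gave 1 probe a gene, so 3 of the 16593 named genes and 3 of the 25697 probes of the bead array. The genes were picked because earlier results of the same arrays had shown them high in both endoderm derivatives, so their levels are given as a description without a test. The first group, called ES here, held 3 arrays of undifferentiated ES cells without a reporter, of the 129P2/OlaHsd background. The second group, DE, held 3 arrays of definitive endoderm made in culture from R1 ES cells, a cross of 129X1/SvJ with 129S1/SV-+p+Tyr- cKitlSl-J/+. The third group, AFE, held 3 arrays of anterior foregut cells made in culture on a 129X1/SvJ background. All lines were kept on mouse embryonic fibroblasts in serum with LIF, and the fibroblasts were depleted before differentiation. Cells were plated with Y-27632, a kinase inhibitor. GSKiXV, a GSK-3 inhibitor, was given at 5 nM on day 2 together with IDE-1, a small molecule inducer of endoderm, at 5 µM. Cultures were split and replated with Y-27632 on day 6, after which 500 nM A83-01, which blocks TGF-beta family receptors, and 100 nM LDN193189, which blocks BMP receptors, were added. RNA came from cells purified by flow sorting, with gates and collection days not given in the sources used here. Strain and stage changed together over the 3 groups, so the part of each cannot be told apart. Nothing in the labels says that the 3 arrays of a group came from separate cultures, so the spread between arrays may be technical.

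Clic6 encodes a member of the chloride intracellular channel family, proteins that exist both in soluble form and in membranes, and the gene is known from secretory epithelia such as the choroid plexus. Capn6 encodes a calpain without the catalytic cysteine that makes other calpains proteases, and its protein is known to bind and stabilize microtubules. Car14 encodes a transmembrane carbonic anhydrase whose catalytic domain faces outside the cell, where it interconverts carbon dioxide and bicarbonate. All values are log2 levels after background correction and quantile normalization, a difference of 1 being a doubling. A probe counts as above background where its deposited detection p-value was under 0.05.

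Clic6 read 5.87, 5.76 and 5.66 in ES 1, 2 and 3, 13.18, 13.05 and 12.84 in DE 1, 2 and 3, and 11.65, 11.30 and 12.07 in AFE 1, 2 and 3. The gene was low on every ES array, highest on every DE array and intermediate on every AFE array, and no 2 groups overlapped. The ES signal was low but above background on all 3 arrays. The group means were 5.77 ± 0.109 in ES, 13.02 ± 0.172 in DE and 11.67 ± 0.387 in AFE (SD, n = 3 each). DE therefore stood 7.26 above ES, a 153-fold difference, and AFE stood 5.91 above ES, a 60.03-fold difference. The AFE mean minus the DE mean was -1.35 on the log2 scale, DE being 2.54-fold higher. In the deposited intensities before any normalization Clic6 gave 11541, 11739 and 5717 units in DE, against 154, 150 and 103 units in ES. In bulk RNA of this kind, a change in the number of expressing cells and a change in RNA per cell cannot be told apart.

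Capn6 read 5.10, 5.27 and 6.54 in ES 1, 2 and 3, 10.53, 10.33 and 10.79 in DE 1, 2 and 3, and 12.37, 11.97 and 13.28 in AFE 1, 2 and 3. The order differed from that of Clic6: AFE was highest, DE intermediate and ES lowest, again with no overlap between groups. The group means were 5.64 ± 0.786 in ES, 10.55 ± 0.227 in DE and 12.54 ± 0.673 in AFE (SD, n = 3 each). Capn6 was 4.91 higher in DE than in ES (30.1-fold), 1.99 higher in AFE than in DE (3.97-fold) and 6.90 higher in AFE than in ES (119.5-fold). The array ES 3 stood apart, 1.35 above the mean of ES 1 and 2, and AFE 3 stood 1.11 above the mean of AFE 1 and 2. In ES 1 and 2 the detection p-values of the Capn6 probe were 0.0451 and 0.0363, close to the limit for background. ES 3 was the one array on the second slide, and a list of 10 measured fibroblast genes also had its highest summed log2 level there, 85.7 against 73.4 in ES 1 and 72.8 in ES 2, with all 10 above background. The same sum was 55.6 to 65.1 in DE, and 70.0, 69.7 and 55.0 in AFE 1, 2 and 3. The part of fibroblasts or slide in the ES 3 value of Capn6 was not tested. Without ES 3, Capn6 was 5.36 higher in DE than in ES and 7.35 higher in AFE than in ES.

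Car14 read 5.40, 4.82 and 5.47 in ES 1, 2 and 3, 9.57, 9.70 and 8.89 in DE 1, 2 and 3, and 11.44, 10.59 and 10.91 in AFE 1, 2 and 3. As for Capn6, every AFE array lay above every DE array and every DE array above every ES array. The group means were 5.23 ± 0.359 in ES, 9.39 ± 0.435 in DE and 10.98 ± 0.427 in AFE (SD, n = 3 each). Car14 was 4.15 higher in DE than in ES (17.8-fold), 1.59 higher in AFE than in DE (3.02-fold) and 5.75 higher in AFE than in ES (53.7-fold). The probe was above background on 8 of 9 arrays, the exception being ES 2 with a detection p-value of 0.158. Within DE, the DE 3 level of Car14 minus the mean of DE 1 and 2 was -0.74. Without DE 3, Car14 was 1.34 higher in AFE than in DE.

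**Figure D1:**
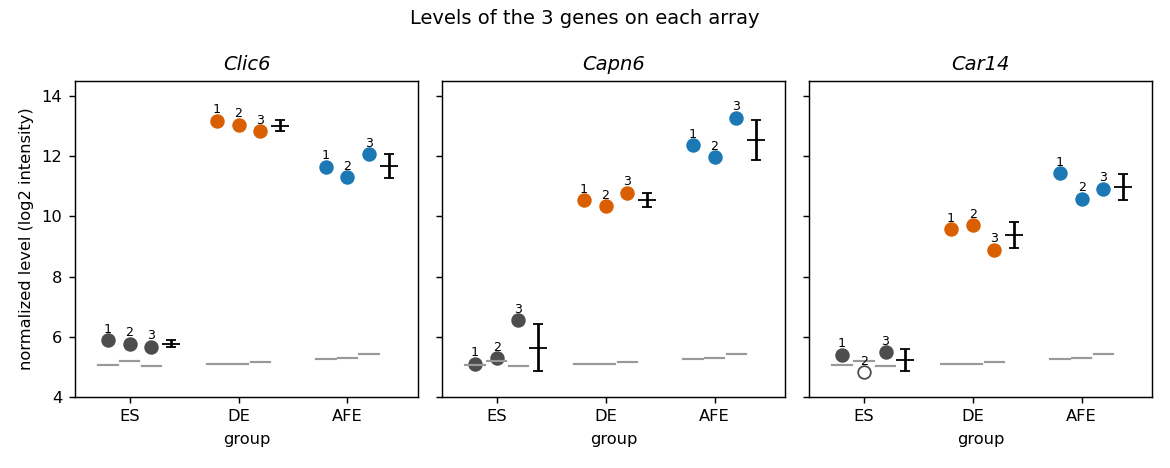
Normalized log2 intensity of Clic6, Capn6 and Car14 on each of the 9 arrays, numbered by replicate, with the group mean and SD beside the points; grey dashes mark the lowest level of a probe above background on each array, and the open point is not above background. The ES arrays sit between 4.82 and 6.54 for all 3 genes, Clic6 is highest in DE, and Capn6 and Car14 are highest in AFE.

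The narrowest space between groups for each gene was that between DE and AFE. For Clic6 the highest AFE array lay 0.767 below the lowest DE array. For Capn6 and Car14 the lowest AFE array lay 1.18 and 0.889 above the highest DE array. For all 3 genes, DE and ES did not overlap, as for 56.7% of the 10251 genes tested in either direction. Likewise AFE and DE did not overlap (38.6% of genes), nor did AFE and ES (57.6% of genes). The size of the differences from ES depended on the background step: without background correction, DE stood 5.75 above ES for Clic6, 3.38 for Capn6 and 2.48 for Car14. By size of the difference between AFE and ES, Capn6 ranked 2, Clic6 4 and Car14 6 among the 10251 genes. Between DE and ES, Clic6 ranked 4, Capn6 36 and Car14 65. The genes had been chosen on these contrasts, so nothing is read from these shares and ranks.

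Marker genes of the labelled stages were read on the same arrays. Of all 10251 genes, limma called 22.2% higher and 21.7% lower in DE against ES, 12.9% higher and 10.1% lower in AFE against DE, and 22.8% higher and 19.3% lower in AFE against ES. In AFE against DE, 56.1% of the calls were thus higher, but 33.4% under median scaling. All 11 measured pluripotency genes were called lower in DE than in ES and lower in AFE than in ES, and all 11 measured definitive endoderm genes were called higher in DE than in ES (limma, adjusted p under 0.05 over all genes). Of 6 measured anterior foregut genes, Pax1, Isl1, Eya1 and Sox2 were called higher in AFE than in DE and Foxe1 was not called (adjusted p = 0.0571). Otx2, a homeobox gene of the anterior endoderm and head, ran the other way, its difference between AFE and DE being -1.96 ± 0.85 (adjusted p = 0.126) and, without DE 3, -2.97 (adjusted p = 0.00572). The probe of Pax9, another pharyngeal gene, was not above background on 3 arrays and was not tested. Replicates 1 and 2 correlated at 0.987 to 0.995 within a group over probes, and replicate 3 with these at 0.931 to 0.979. DE 3 stood apart by a list of 8 measured endothelial genes, whose summed log2 level was 88.9 there, 51.0 in DE 1 and 49.6 in DE 2, with 7 of the 8 above background in DE 3. It also stood apart by the 11 definitive endoderm genes, whose sum was 105.4 there, 128.9 in DE 1 and 129.5 in DE 2. The DE 3 level minus the mean of DE 1 and 2 was -0.28 for Clic6 and 0.35 for Capn6, beside the lower Car14 value given above. The part of endothelial RNA in these values was not tested. In AFE 2 all 11 pluripotency genes were above background, against 6 in AFE 1 and 5 in AFE 3. Their summed log2 level was 79.7 in AFE 2, 65.3 in AFE 1 and 63.8 in AFE 3, beside 129.5 to 131.1 in ES. AFE 2 was also the lowest AFE array for Clic6, Capn6 and Car14, and a link between these was not tested. A list of 13 measured extraembryonic endoderm genes had summed levels of 81.7 to 84.6 in ES, 128 to 142 in DE and 96.8 to 99.1 in AFE, and 11 of the 13 were called higher in DE than in ES, against the 22.2% of all genes. Within DE, its sum was 141.6 in DE 3, 128.3 in DE 1 and 127.9 in DE 2. This list was highest in DE, as Clic6 was, and its part in the level of Clic6 was not tested.

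Promoter sequences are printed for Capn6 and Car14, the 2 of the 3 genes that matched in the RefSeq promoters of build GRCm38.p6. Clic6 did not match. The log2 levels of Capn6 and Car14 had a Pearson correlation of 0.979 over the arrays, the closest of the 3 genes. The sequences run 5′ to 3′ on the gene's strand, from 250 bases before to 50 bases after the annotated start. Capn6 lies on the minus strand with its window at chrX:143827363-143827662, and Car14 on the minus strand with its window at chr3:95904636-95904935. Capitals mark GC boxes, matches to GGGCGG or its reverse complement CCGCCC.
Capn6: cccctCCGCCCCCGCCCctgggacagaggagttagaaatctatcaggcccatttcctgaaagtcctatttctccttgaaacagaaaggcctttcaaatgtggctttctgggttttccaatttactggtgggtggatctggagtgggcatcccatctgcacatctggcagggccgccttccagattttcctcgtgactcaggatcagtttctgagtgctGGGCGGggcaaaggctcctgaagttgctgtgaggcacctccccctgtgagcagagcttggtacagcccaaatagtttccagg
Car14: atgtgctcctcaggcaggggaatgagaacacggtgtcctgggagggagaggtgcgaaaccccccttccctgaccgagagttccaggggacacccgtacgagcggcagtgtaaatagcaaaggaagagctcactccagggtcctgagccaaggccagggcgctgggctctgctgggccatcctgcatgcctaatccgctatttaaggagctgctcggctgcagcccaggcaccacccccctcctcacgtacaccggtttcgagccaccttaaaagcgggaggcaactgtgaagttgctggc
The Capn6 window held 3 GC boxes, which began at -245 and -239 on the opposite strand and at -32 on the gene's strand, counted from the start. The Car14 window held 0 GC boxes. Of 32544 promoter windows of the same length, 35.9% held at least 1. Neither window held the letters TGTTTAC of a FOXA motif (3.66% of all windows), AGATAA of a GATA motif (11.2%), ACAAT of a SOX motif (30.8%) or TATAAA of a TATA box (13.6%) on either strand. These motifs do not overlap one another in their letters as found here, and a missing match says only that those letters are not in the window. The G and C content was 54.3% for Capn6 and 61% for Car14, with a median of 53% over all windows.

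Over the 9 arrays, which fall into 3 groups and share the same amplification and array platform, the levels of Clic6 correlated with those of Capn6 at 0.885 and with those of Car14 at 0.895. Among 1462 genes whose group means differed by at least 2 on the log2 scale, Car14 ranked 12 in likeness to Capn6 and Capn6 ranked 12 in likeness to Car14. Capn6 ranked 212 and Car14 ranked 198 in likeness to Clic6. The genes most like Clic6 were Helz2 (r = 0.995), Stard10 (0.994), which encodes a lipid transfer protein, Adcy6 (0.992), an adenylate cyclase, Cmtm8 (0.992) and Slc22a23 (0.990). For Capn6 they were Mpdz (0.995), a scaffold of many PDZ domains, the glypican Gpc6 (0.994), Kank1 (0.992), the glypican Gpc2 (0.990) and Idh2 (0.988), the mitochondrial isocitrate dehydrogenase. For Car14 they were Kank1 (0.990), Gpc6 (0.989), Ttc3 (0.989), Sall2 (0.988) and Sox9 (0.988), both transcription factors. Kank1 and Gpc6 stood on both the Capn6 and the Car14 list. Kank1 averaged 8.04 in ES, 9.95 in DE and 10.79 in AFE, and Gpc6 averaged 4.86, 6.45 and 7.25 in the same order. The Gpc6 probe was above background on 1 of 3 ES arrays and the Sox9 probe on 0 of 3, so both start from the background level as Car14 nearly does. These correlations describe 9 arrays in 3 groups and carry no test.

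**Figure D2:**
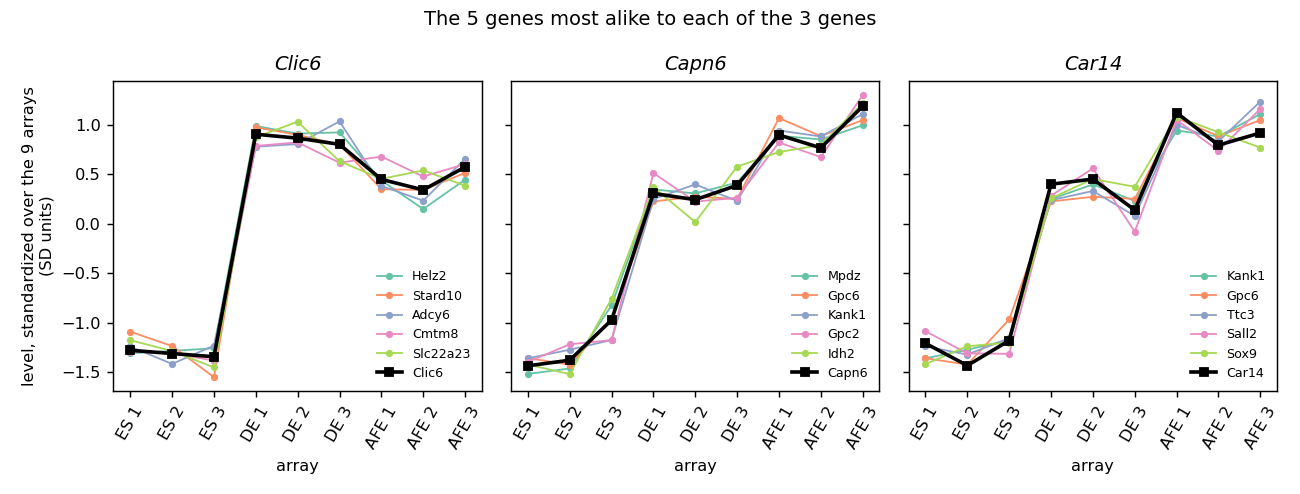
Levels on each array, standardized to SD units over the 9 arrays, for Clic6, Capn6 and Car14 (black squares) and the 5 genes with the highest Pearson r to each (coloured points). The Clic6 set is highest in DE, and the Capn6 and Car14 sets are lowest in ES and highest in AFE.

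In the CLIC family, Clic1 was the 1 other gene measured. Clic1, a widely expressed soluble and membrane protein, read 9.34, 9.46 and 9.17 in ES, 10.93, 10.97 and 11.40 in DE, and 9.73, 9.84 and 10.64 in AFE. It was highest on the DE arrays, with no overlap between groups. Clic1 rose by 1.77 ± 0.26 in DE against ES (SE, limma, adjusted p = 0.000562). It fell by 1.03 ± 0.26 in AFE against DE (adjusted p = 0.0196), and this call was lost without AFE 1 (adjusted p = 0.0686) or without AFE 2 (0.071). Clic1 was 0.75 higher in AFE than in ES (adjusted p = 0.0428), and 7 of the 9 omissions of a single array ended that call, the adjusted p reaching 0.114 without ES 3. The probes of Clic3 and Clic5 were not above background on 3 arrays, and Clic4 had no probe here.

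In the calpain family 6 of 15 other members were tested, and 0 of 6 were called in DE against ES by limma, against 43.9% of all genes called in either direction. Capns1, the small regulatory subunit shared by the classical calpains, read 11.55, 11.50 and 11.50 in ES, 11.16, 11.41 and 11.34 in DE, and 10.06, 9.96 and 10.45 in AFE. Its AFE arrays were all below the others. Capns1 fell by 1.15 ± 0.18 in AFE against DE (adjusted p = 0.00243) and by 1.36 ± 0.18 in AFE against ES (adjusted p = 0.00033). It was the 1 calpain gene of 6 called in each of those comparisons, where 23.0% and 42.1% of all genes were called. Capn1 and Capn2, the large subunits of the classical calpains, differed by 0.22 ± 0.27 and 0.00 ± 0.27 in DE against ES. In AFE against DE, Capn1 differed by -0.81 ± 0.27 (adjusted p = 0.0585), which was called without DE 3 (0.0231) and without AFE 3 (0.00808). In AFE against ES it was called without AFE 3 as well (adjusted p = 0.0103). Capn5, Capn7 and Capn10 were called in none of the 3 comparisons, with differences of -0.50 to 0.42. Median differences of the 6 genes were 0.08 in DE against ES, -0.42 in AFE against DE and -0.38 in AFE against ES, beside medians of 0.01, 0.07 and 0.08 over all genes. Capn3, Capn8, Capn11, Capn13 and the inhibitor Cast had probes not above background on 3 arrays.

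In the carbonic anhydrase family 8 of 15 other members were tested. Car4, which encodes a membrane-anchored enzyme that also acts outside the cell, read 7.79, 7.52 and 8.04 in ES, 14.13, 14.00 and 12.61 in DE, and 11.25, 11.49 and 12.35 in AFE. Its DE arrays were highest and its AFE arrays intermediate, the order of Clic6 and not that of Car14. Car4 rose by 5.80 ± 0.42 in DE against ES (adjusted p = 9.63e-06), fell by 1.88 ± 0.42 in AFE against DE (adjusted p = 0.0118) and rose by 3.92 ± 0.42 in AFE against ES (adjusted p = 9.84e-05). Car2, the main cytosolic enzyme, read 10.61, 10.76 and 10.43 in ES, 11.22, 11.12 and 10.00 in DE, and 8.75, 8.0 and 9.60 in AFE. Its AFE arrays lay below all others. Car2 fell by 2.00 ± 0.42 in AFE against DE (adjusted p = 0.00919) and by 1.82 ± 0.42 in AFE against ES (adjusted p = 0.0071). Car12, a transmembrane enzyme, was above background on 0 of 3 ES arrays and 3 of 3 AFE arrays and was at least 2.61-fold higher in AFE than in ES (adjusted p = 0.00852). Here a bound is the mean of the detected group over the lowest detected level of the other arrays. Car3, a cytosolic enzyme with weak activity, was above background on 3 of 3 ES arrays and 0 of 3 DE arrays and was at least 1.75-fold lower in DE than in ES (adjusted p = 0.00858). Its call in AFE against ES (-1.04 ± 0.34, adjusted p = 0.034) was lost without ES 1, ES 2, AFE 1 or AFE 2, with adjusted p-values of 0.101 to 0.126. In all, limma called 1 of 8 higher and 1 lower in DE against ES, 0 higher and 2 lower in AFE against DE, and 2 higher and 2 lower in AFE against ES, beside 43.9%, 23.0% and 42.1% of all genes called in either direction. Without DE 1, 2 were called higher in DE against ES, and without DE 3, AFE 2 or AFE 3, 2 were called lower. Without DE 3 or AFE 3, 1 was called higher in AFE against DE. The catalytically inactive Car11 and the cytosolic Car13 were called in none of the 3. The mitochondrial Car5b differed by -0.86 ± 0.32 in DE against ES (adjusted p = 0.0535), while its other probe was called there (-0.83, adjusted p = 0.0125) and in AFE against ES (-0.69, adjusted p = 0.029). The medians of the 8 genes were -0.07, 0.44 and 0.36 in the 3 comparisons.

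**Figure D3:**
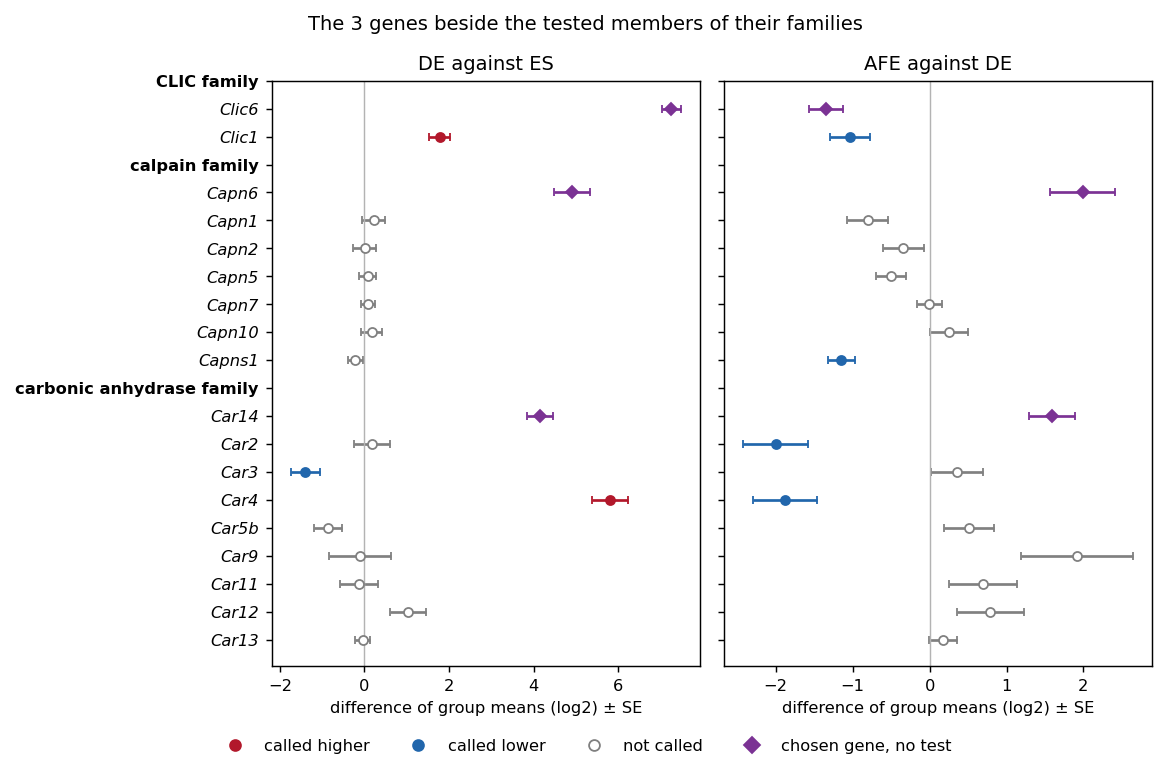
Difference of group means on the log2 scale with its SE for Clic6, Capn6 and Car14 (diamonds, no test) and for the tested members of their families (circles, filled where limma's adjusted p was under 0.05), for DE against ES on the left and AFE against DE on the right. Car4 at 5.80 lies closest to the diamonds on the left. The genes called on the right, Capns1, Car2, Car4 and Clic1, all lie below 0, as do some genes that were not called.

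Chloride movement beyond the CLIC family was followed in 16 tested genes of a list of 27. Limma called 6 higher and 5 lower in DE against ES, 1 higher and 1 lower in AFE against DE, and 6 higher and 2 lower in AFE against ES, beside 43.9%, 23.0% and 42.1% of all genes called in either direction. In AFE against DE the count of higher calls was 0 without ES 1, ES 2, DE 1 or DE 2 and 2 without ES 3, and that of lower calls was 3 without DE 3 and 2 without DE 1 or AFE 3. Ttyh3, a chloride channel of the tweety family, read 6.84, 6.01 and 6.48 in ES, 8.69, 9.24 and 9.55 in DE, and 9.02, 9.04 and 8.51 in AFE. It rose by 2.72 ± 0.29 in DE against ES (adjusted p = 9.59e-05) and by 2.42 ± 0.29 in AFE against ES (adjusted p = 0.000196). Slc12a2, the sodium, potassium and chloride cotransporter that loads secretory cells with chloride, averaged 2.39 ± 0.40 higher in DE than in ES (adjusted p = 0.00128) and 1.86 ± 0.40 higher in AFE than in ES (adjusted p = 0.00508). Ano10, of the anoctamin family, was 1.78 ± 0.26 higher in DE than in ES (adjusted p = 0.000505), while Ttyh1, another tweety family member, fell by 1.81 ± 0.24 (adjusted p = 0.000329). Clcn7, a chloride and proton exchanger of lysosomes, was highest in DE: it rose by 1.28 ± 0.22 in DE against ES (adjusted p = 0.00148) and fell by 1.30 ± 0.22 in AFE against DE (adjusted p = 0.00355), with a difference of -0.02 ± 0.22 in AFE against ES. Cftr, a chloride channel regulated by cyclic AMP, was not above background on 3 arrays. The medians of the 16 genes were 0.58, -0.22 and 0.49, beside 0.01, 0.07 and 0.08 over all genes.

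Bicarbonate and proton transport, the setting in which Car14 acts, was followed in 14 tested genes of a list of 29. Limma called 3 higher and 2 lower in DE against ES, 1 higher and 1 lower in AFE against DE, and 2 higher and 0 lower in AFE against ES, where 43.9%, 23.0% and 42.1% of all genes were called in either direction. In DE against ES, 5 were called higher without DE 3 and 1 lower without ES 1, ES 2 or DE 1. In AFE against DE, 3 were called lower without DE 3 and 2 higher without AFE 3. In AFE against ES, 4 were called higher without AFE 3 and 1 lower without DE 3 or AFE 3. Slc4a2, an exchanger of chloride for bicarbonate, read 8.84, 8.71 and 9.27 in ES, 11.07, 11.35 and 11.07 in DE, and 9.61, 9.62 and 8.61 in AFE. All DE arrays lay above the others, while AFE and ES overlapped. Slc4a2 rose by 2.22 ± 0.29 in DE against ES (adjusted p = 0.00031) and fell by 1.88 ± 0.29 in AFE against DE (adjusted p = 0.00218). Slc4a8, a sodium-driven exchanger, ran the other way: it fell by 1.35 ± 0.20 in DE against ES and rose by 1.51 ± 0.20 in AFE against DE (adjusted p = 0.000673 and 0.00106), but its other probe was called in neither. Slc16a3, a lactate and proton carrier, was 2.11 ± 0.55 higher in DE than in ES (adjusted p = 0.0115) by 1 of its 2 tested probes, and the other differed by 0.01. The medians of the 14 genes were 0.01, 0.07 and 0.03.

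Genes around the known work of calpain 6, its partner Arhgef2, a microtubule-bound exchange factor, the GTPase Rac1 and genes of microtubule stability, made a list of 17 with 12 tested. Limma called 4 higher and 3 lower in DE against ES, 1 higher and 2 lower in AFE against DE, and 4 higher and 3 lower in AFE against ES, with 43.9%, 23.0% and 42.1% of all genes called in either direction. In AFE against DE, 4 were called lower without DE 3 and 0 higher without DE 1, DE 2, AFE 2 or AFE 3. In AFE against ES, 2 were called higher without ES 3, AFE 1 or AFE 2. Atat1, the acetyltransferase of alpha-tubulin, was 1.91 ± 0.26 higher in DE than in ES (adjusted p = 0.000377) and 1.26 ± 0.26 higher in AFE than in ES (adjusted p = 0.00389). Hdac6, which removes that acetyl group, was 0.95 ± 0.22 higher in DE than in ES (adjusted p = 0.00619), as were Arhgef2 by 1.00 ± 0.26 (adjusted p = 0.0119) and Rac1 by 0.99 ± 0.24 (adjusted p = 0.00924). Stmn2, a microtubule destabilizing protein of neurons, read 11.38, 11.22 and 11.10 in ES, 6.37, 6.28 and 6.94 in DE, and 4.83, 4.90 and 4.80 in AFE, where it was not above background. Its groups did not overlap, and their order was the reverse of that of Capn6. Stmn2 fell by 4.70 ± 0.20 in DE against ES (adjusted p = 5.88e-07) and was at least 60.2-fold lower in AFE than in ES (adjusted p = 2.2e-07). Stmn1, its widely expressed relative, differed by 0.85 ± 0.42 in DE against ES (adjusted p = 0.128). The other genes of the list called lower in DE against ES were Mapt and Map7. Mapt was at least 6.13-fold lower (adjusted p = 7.53e-06) by 1 of its 2 tested probes, and the other differed by -0.21 (adjusted p = 0.595). Map7 differed by -1.27 ± 0.26 (adjusted p = 0.00398). By 1 of its 2 tested probes, Map1b was called lower in AFE against DE (-1.72, adjusted p = 0.0102). The same probe was called lower in AFE against ES (-1.43, adjusted p = 0.0122). The other Map1b probe differed by 0.03 and -0.12 in these comparisons (adjusted p = 0.961 and 0.766). Tubb3 and Rhoa had probes not above background on 3 arrays. The medians of the 12 genes were 0.35, -0.39 and -0.03.

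**Figure D4:**
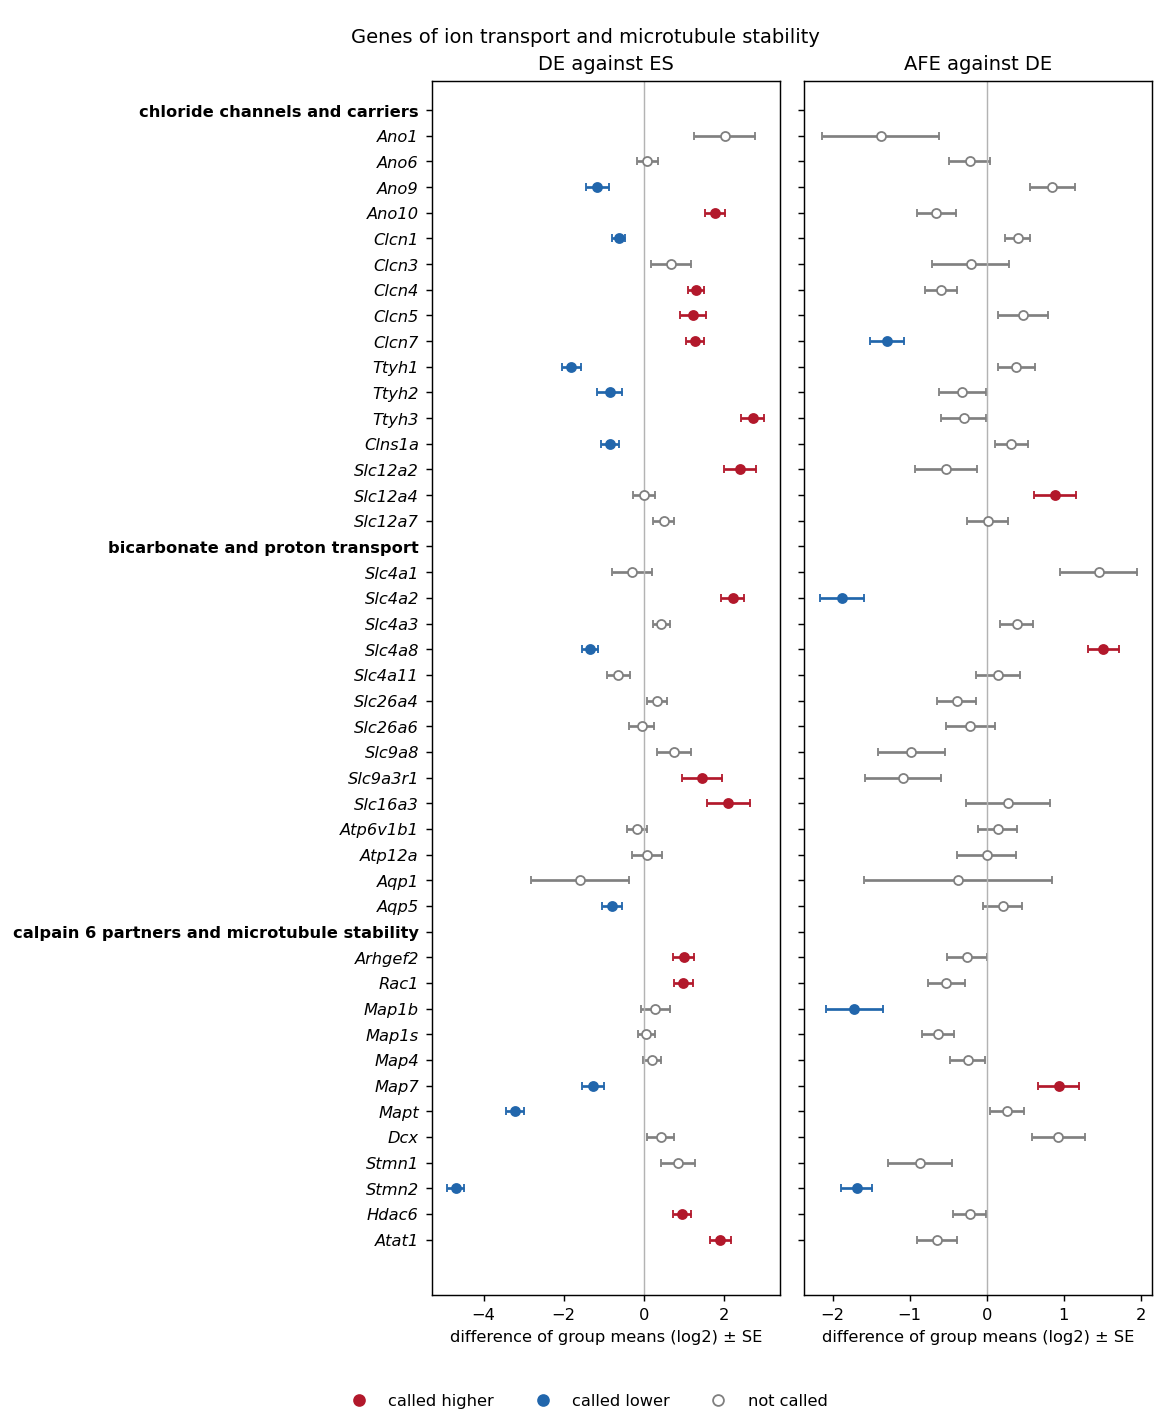
Difference of group means on the log2 scale with its SE for the tested genes of chloride transport, of bicarbonate and proton transport, and of calpain 6 partners and microtubule stability, for DE against ES on the left and AFE against DE on the right. Filled circles were called by limma at an adjusted p under 0.05; Ttyh3 at 2.72 and Stmn2 at -4.70 are the extremes on the left.

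Since Clic6 and Car14 are both known from the choroid plexus, a list of 23 genes of that epithelium was read alongside, 13 of them tested. Limma called 7 higher and 1 lower in DE against ES, 2 higher and 5 lower in AFE against DE, and 8 higher and 2 lower in AFE against ES. The shares of all genes were 22.2% higher and 21.7% lower, 12.9% higher and 10.1% lower, and 22.8% higher and 19.3% lower. Without DE 3, 4 of the 13 were called higher in AFE against DE, and without any 1 DE array 2 were called lower in DE against ES. Ttr, the thyroxine carrier that is also made by endoderm and liver, was above background on 0 of 3 ES arrays and was at least 190-fold higher in DE than in ES (adjusted p = 2.56e-07). The sulfate carrier Slc13a4 read 10.69, 10.74 and 9.97 in DE, against 6.03, 6.13 and 6.08 in ES, and rose by 4.39 ± 0.26 (adjusted p = 3.07e-06). The folate receptor Folr1 fell by 2.75 ± 0.29 in DE against ES (adjusted p = 8.74e-05) and fell by 1.92 ± 0.29 in AFE against DE (adjusted p = 0.00198), where its other probe was not called (-1.36, adjusted p = 0.0747). Sostdc1, a secreted BMP and Wnt antagonist, was not above background in DE and was at least 4.38-fold higher in AFE than in DE (adjusted p = 0.000896), and Cldn3, a claudin of tight junctions, was 2.04 ± 0.36 higher (adjusted p = 0.00412). Kl, Htr2c, Lmx1a and Kcne2 had probes not above background on 3 arrays. The summed log2 level of the 13 genes was 95.8 to 103 in ES, 117 to 119 in DE and 107 to 117 in AFE.

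Of the 18 nearest annotated neighbours of Clic6, Capn6 and Car14 in the GRCm38.p6 gene order, 3 on each side of each, 8 had a probe and 7 were tested. Runx1, a blood and endothelial transcription factor next but one to Clic6, read 5.16, 4.84 and 5.29 in ES, 7.83, 7.93 and 7.01 in DE, and 5.16, 5.50 and 5.31 in AFE. All its DE arrays lay above the rest, and it rose by 2.49 ± 0.26 in DE against ES (limma, adjusted p = 8.12e-05) and fell by 2.27 ± 0.26 in AFE against DE (adjusted p = 0.000458). Its AFE level differed from ES by 0.22 ± 0.26 (adjusted p = 0.517), unlike the high AFE level of Clic6. Aph1a, a gamma-secretase subunit next to Car14, rose by 1.74 ± 0.18 in DE against ES (adjusted p = 8.74e-05) and by 1.30 ± 0.18 in AFE against ES (adjusted p = 0.000504). Dcx, a neuronal microtubule protein next to Capn6, was above background on 0 of 3 ES arrays and 2 of 3 AFE arrays and was at least 1.74-fold higher in AFE than in ES (adjusted p = 0.0115). Pak3, on the other side of Capn6, fell by 1.55 ± 0.37 in AFE against DE (adjusted p = 0.0166), a call lost without DE 1, DE 2, AFE 1 or AFE 2 at adjusted p-values of 0.0578 to 0.0645. Rcan1 near Clic6 rose by 0.69 ± 0.16 in DE against ES by 1 probe (adjusted p = 0.00693), while its other probe differed by -0.25 there and was called in AFE against ES (-2.16, adjusted p = 5.74e-05). Anp32e near Car14 was 0.88 ± 0.17 higher in AFE than in DE (adjusted p = 0.00678), which was not called under median scaling (0.104), and BC028528 was called in none of the 3 comparisons.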

How the data were processed

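Total RNA of sorted cells (500 ng a sample, per the labels' protocols) was amplified, labelled and read on 9 Illumina bead arrays. Per the file headers, the deposited intensity values are averaged bead signals without normalization, and each has a deposited detection p-value. How the authors made the log2 values of their processed table, and which scanner software they used, is not stated in the sources; 2 of its ES columns do not match the intensities under the same label, so the table served only as an alternative.

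Intensities were normalized with neqc of limma 3.58.1 in R 4.3.3 (background by detection p, offset 16, quantiles, log2). Probes above background on at least 3 arrays were kept (15090 of 25697), the brightest was used for each gene, and a linear model of the 3 groups was fitted to 9 arrays with eBayes and Benjamini-Hochberg adjustment over 10251 genes. Detected probes numbered 12628 to 14352 an array. The procedure was tested on simulated data. The number of arrays limits the precision. Probes were named from the platform annotation, in which 23978 have 1 symbol, 0 several and 1719 none.

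Clic6, Capn6 and Car14, the lists of relatives and the marker lists were chosen with earlier results of these data known. The plan was to name all measured members of the 3 families, the 5 most alike genes and the 3 neighbours on each side. It also allowed up to 4 called genes per comparison of each function list and up to 4 genes of each marker list. More were named for some lists, among them microtubule stability, choroid plexus and anterior foregut. Uncalled genes of the function lists were named too. The main fit did not pair the samples by replicate number. Deviations of same-numbered arrays correlated at -0.143 to 0.0748, which with 3 arrays a group cannot settle whether they shared a culture run. Alternatives covered background, normalization, source of values, filters, probe choice, samples in the fit, moderation, the replicate block, the slide and each array left out.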

Additional observations from a re-analysis of the deposited data

Results flagged for a closer look

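The authors' processed table has a column labelled ES replicate 2 that ranks the probes as no intensity column, its best Spearman correlation being 0.926 with the intensities of DE 2, and that stands outside the comparisons above. In that column of the authors' deposited table, Clic6 read 13.03, against 5.67 and 5.55 in the columns labelled ES 1 and ES 3. Capn6 read 10.63 there, against 4.79 and 5.04. Car14 read 7.40 there, against 5.15 and 4.37. The deposited intensities of ES 2 gave 5.76, 5.27 and 4.82 for Clic6, Capn6 and Car14 after normalization. The column labelled ES replicate 3 ranks the probes exactly as the intensities of ES 2.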

How the results depend on the processing

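Clic6, Capn6 and Car14 kept the sign of every difference under all 20 alternatives run on their levels. Several of these could not move a value. Each gene has 1 probe, so filters and probe choice left its levels as they were. The balanced replicate block keeps differences of means, and alternatives that drop only ES arrays cannot change AFE minus DE. Using slide 1 only was the same fit as leaving out ES 3, so these count as 1 check. In all 20, the differences of the 3 genes between AFE and DE moved from the main values by less than the pooled SD of replicates. They were -1.55 to -1.16 for Clic6, 1.62 to 2.28 for Capn6 and 1.31 to 1.79 for Car14. Differences from ES, which rest on signals near background, were smaller under both other background steps. Without background correction, DE minus ES was 5.75 for Clic6, 3.38 for Capn6 and 2.48 for Car14, and AFE minus ES was 4.43, 5.30 and 3.94. With the normexp background and an offset of 50, DE minus ES was 6.24, 3.85 and 2.97, and AFE minus ES 4.91, 5.80 and 4.48. In the authors' processed table, DE minus ES was 4.68, 3.55 and 3.59, and AFE minus ES 3.34, 5.47 and 5.07. With that table's unmatched ES column left out, DE minus ES was 7.15, 5.46 and 4.47, and AFE minus ES 5.81, 7.38 and 5.95. Leaving out 1 array at a time gave DE minus ES of 7.18 to 7.35 for Clic6, 4.64 to 5.36 for Capn6 and 3.95 to 4.40 for Car14, and AFE minus ES of 5.71 to 6.10, 6.53 to 7.35 and 5.52 to 5.94.

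Genes called numbered 4503 in DE against ES, 2358 in AFE against DE and 4319 in AFE against ES. The processed table gave 667, 883 and 1335, and with its unmatched ES column left out, an alternative chosen after seeing the data, it gave 3789, 2044 and 3614. Leaving out 1 array gave 3426 to 5022, 1421 to 3235 and 3274 to 5162, AFE against DE falling to 1506 without DE 1 and 1421 without DE 2. In AFE against DE, 56.1% of calls were higher, and 33.4% under median scaling, which put the median of all genes at -0.12 there. The replicate block gave 4288, 2097 and 4161 calls. Among calls of the listed genes and neighbours in the 3 comparisons, the replicate block ended 7 and added 12. The calls of Car3 and Arhgef2 in AFE against ES were among those ended. The processed table turned AFE against ES of Sox2 to 0.47 and of Apoa1 to -0.49, neither called. Leaving out 1 array moved DE against ES of Emcn between -1.11 and 3.14, of Plvap between -1.50 and 1.65 and of Tek between -1.34 and 1.35, the negative values being those without DE 3. The causes were not tested.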

Other observations

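Several genes of the carbonic anhydrase, chloride and bicarbonate lists had 1 array apart from the others of its group. Car9, a transmembrane carbonic anhydrase known as a target of hypoxia signalling, read 5.84, 5.82 and 9.12 in AFE 1, 2 and 3, against 4.89, 5.04 and 5.11 in DE. Its probe was above background on 0 of 3 DE arrays. By the AFE mean, which AFE 3 raised, the bound was 3.51-fold higher in AFE than in DE (limma, adjusted p = 0.0881). Without AFE 3 the difference between AFE and DE was 0.82 on the log2 scale (adjusted p = 0.0103). Car12 read 4.95, 5.19 and 6.92 in DE 1, 2 and 3, against 4.70, 4.63 and 4.65 in ES. Ano1, a calcium-activated chloride channel, read 8.14, 8.15 and 4.70 in DE 1, 2 and 3, against 5.06, 5.07 and 4.81 in ES. Its difference between DE and ES was 2.02 ± 0.76 (adjusted p = 0.0559) and 3.17 without DE 3 (adjusted p = 1.6e-06). Aqp1, a water channel of secretory epithelia, read 6.83, 6.98 and 10.11 in ES 1, 2 and 3. It read 4.87, 5.01 and 9.28 in DE 1, 2 and 3, and 5.40, 5.66 and 6.97 in AFE 1, 2 and 3. Replicate 3 was thus the highest in all 3 groups.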
